A study of Mus musculus with 36 samples.

Results

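The response to DMOG was compared between liver and retina as a difference of differences, the log2 change between DMOG and PBS in liver RNA minus the same change in retina RNA. The comparison covers 11101 genes, out of 22533 with a symbol in both deposited tables, whose level averaged at least 0.5 FPKM (fragments per kilobase of transcript, scaled to the mapped fragments of a library) over the 18 libraries of each table. It draws on 24 of the 36 libraries of the series, 6 for each treatment in each tissue. Every library came from ribosome-depleted total RNA of C57BL/6 mice, an inbred strain. The DMOG groups are 6 libraries labelled retina and 6 labelled liver, and the PBS groups are 6 libraries of each label. The 12 libraries of the drug roxadustat entered only the filter on the mean level and, in the fits, the spread between replicates. No dose, time, route or age is given in the labels used here, nor whether replicates are separate animals, and p-values therefore reflect only how much these libraries vary.

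The tissue labels go against the transcriptomes. The summed level of 9 hepatocyte genes ran from 22330 to 37560 FPKM in the DMOG libraries labelled retina and from 26590 to 33330 FPKM in their PBS libraries, against 26.3 to 121 and 42.8 to 173 FPKM in the DMOG and PBS libraries labelled liver. Over 5 rod photoreceptor genes the sums were 1.05 to 2.595 and 1.22 to 2.09 FPKM in the libraries labelled retina, against 6524 to 11670 and 6499 to 10070 FPKM in those labelled liver. In what follows, liver RNA therefore means the libraries labelled retina, and retina RNA the libraries labelled liver. Alb and Ahsg, both abundant liver transcripts, were listed at 0 in liver RNA. One library also stood apart: replicate 5 of the DMOG group of liver RNA had a mean level of 3.42 on the log2(FPKM + 0.5) scale over 34 HIF target genes, where the other 5 DMOG libraries had 4.67 to 5.11 and the 6 PBS libraries 3.32 to 3.51. Results are therefore given with all libraries, and many counts and some single genes also without that one.

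Cells sense oxygen through prolyl hydroxylases that mark the alpha subunits of HIF, the hypoxia-inducible transcription factor, for destruction by the VHL ubiquitin ligase. These enzymes need oxygen, iron and oxoglutarate. DMOG (dimethyloxalylglycine) is a cell-permeable oxoglutarate analogue that blocks them and other oxoglutarate-dependent dioxygenases, after which HIF accumulates and switches on genes of glycolysis, angiogenesis, red cell production and its own hydroxylases. PBS is the saline buffer given as control. In retina, HIF is known for driving vessel growth through Vegfa, and in adult liver it can switch on erythropoietin.

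The response was larger in liver RNA (labelled retina) for most genes that differed. The difference passed an adjusted p of 0.05 (limma, Benjamini-Hochberg) for 1763 genes, 15.9% of those tested, of which 774 (6.97%) had a higher and 989 (8.91%) a lower response in liver RNA. Rescaled to an equal FPKM total, the split was 483 higher and 1603 lower, a share of 23.2% higher against 43.9% with the values as deposited. Without replicate 5 the difference passed for 3202 genes (28.8%), 1478 higher (13.3%) and 1724 lower (15.5%). All 1759 genes called both ways kept their direction, 1443 were called only without replicate 5, and 4 only with it. In 1594 of the 1763 genes the larger change was that of liver RNA, where the response was above 0 in 637 and below 0 in 957. In the other 169 it was that of retina RNA (labelled liver), with a response above 0 in 32 and below 0 in 137. The median size of the response over all genes tested was 0.148 (log2) in liver RNA and 0.0647 in retina RNA.

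Set against PBS within its own table, DMOG raised 939 of these genes in liver RNA (8.46%) and lowered 1275 (11.5%), and without replicate 5 it raised 1838 (16.6%) and lowered 1998 (18%). In retina RNA it raised 40 (0.36%) and lowered 57 (0.513%). A set of 22 genes was called in both tissues in the same direction, 13 higher and 9 lower, which is 0.994% of the genes called in liver RNA and 22.7% of those called in retina RNA. Leaving out single libraries moved that count between 8 and 55. It was 8 to 13 without Liver_DMOG replicate 2, 4, 5 or 6 or Liver_PBS replicate 1, 2 or 6, 41 without Liver_DMOG replicate 3 and 55 without Liver_PBS replicate 4. Across the 11101 genes, which are not independent replicates, the responses of the tissues had a Pearson r of 0.0432 and a Spearman rho of 0.0604. They had the same sign in 55.7% of the genes called in liver RNA, against 52.4% of all genes tested.

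**Figure D1:**
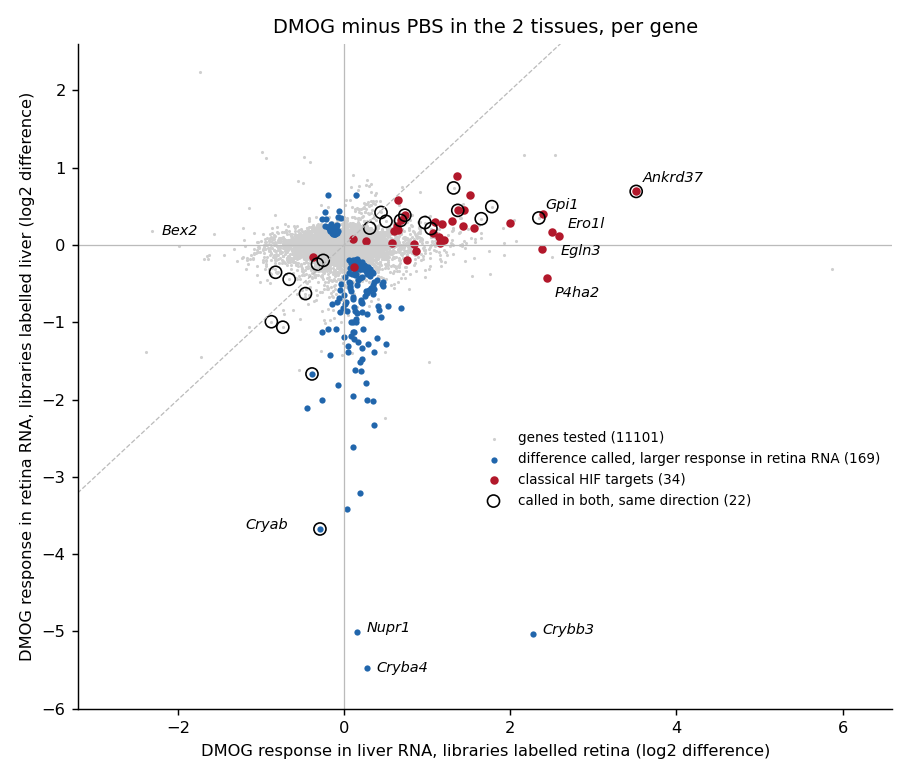
The log2 difference between DMOG and PBS is plotted for each of 11101 genes, liver RNA (libraries labelled retina) on the horizontal axis and retina RNA (libraries labelled liver) on the vertical axis, with a dashed line of equal responses. Most of the 34 HIF targets (red) spread to the right, up to 3.52 for Ankrd37, and stay near 0 on the vertical axis, the 169 genes with the larger response in retina RNA (blue) reach down to -5.48 for Cryba4, and circles mark the 22 genes called in both in the same direction.

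The list of oxygen-sensing hydroxylases and HIF subunits also holds Vhl and Cited2. Of its 13 genes tested, 5 had a higher response in liver RNA and 0 a lower one, with 5 and 4 at an unadjusted p under 0.05. The counts were 5 and 2 without replicate 5 and 5 and 3 at an equal total. The shares over all genes tested were 6.97% higher and 8.91% lower with all libraries, and 13.3% and 15.5% without replicate 5. At an equal total 483 genes were higher and 1603 lower. List counts below that leave out replicate 5 or use an equal total are to be read against these. The 5 higher with all libraries were Egln3, Egln1, Vhl, Cited2 and Arnt, and each of them rose in liver RNA. In retina RNA 0 of the 13 passed. The responses of all 13 were above 0 there, as were those of 57.2% of all genes tested. An unadjusted p under 0.05 was reached by 5 of the 13, and by 1892 of the 13779 genes tested in retina RNA. For the difference, 30.7% of all genes tested reached it in either direction. Counts of list members at an unadjusted p below are to be read against these. The median difference of the 13 was -0.17 (log2), against -0.0070 over all genes tested, so the list as a whole did not lie above the rest.

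Levels are given from here on as the lowest, median and highest of 6 libraries. Egln3, which encodes the prolyl hydroxylase PHD3 and is itself a HIF target, had 8.23, 49.7 and 72.5 FPKM with DMOG and 5.19, 7.05 and 8.29 FPKM with PBS in liver RNA (labelled retina). Egln3 levels in retina RNA (labelled liver) were 1.33, 1.74 and 2.73 FPKM with DMOG and 1.04, 1.51 and 2.14 FPKM with PBS. Replicate 5, at 8.23 FPKM, lay within the PBS range of liver RNA, the other 5 DMOG libraries lay above it, and the retina groups overlap. The responses differed by 2.33 ± 0.39 (log2, SE, adjusted p = 0.000308), and by 2.79 ± 0.20 without replicate 5. Egln1 is the gene of PHD2, the main oxygen sensor, and had 9.404, 20.4 and 27.1 FPKM with DMOG and 7.38, 8.18 and 9.44 FPKM with PBS in liver RNA. Egln1 levels in retina RNA were 25.3, 28.3 and 31.6 FPKM with DMOG and 22.9, 23.6 and 24.96 FPKM with PBS. All 6 DMOG libraries of retina RNA were thus above all 6 PBS libraries, while that response of 0.27 ± 0.067 did not pass (adjusted p = 0.066). The difference did, at 0.91 ± 0.19 (adjusted p = 0.00152).

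Cited2, whose product competes with HIF for its coactivators, differed by 1.29 ± 0.33 (adjusted p = 0.00856). Arnt, the shared beta subunit of HIF, differed by 0.54 ± 0.15 (adjusted p = 0.0136). Vhl, the substrate receptor of the ubiquitin ligase, differed by 0.51 ± 0.12 (adjusted p = 0.00332). In these 3 genes the 5 other DMOG libraries of liver RNA lay above the PBS libraries and replicate 5 did not, while the retina groups overlap. The alpha subunits did not pass with all libraries. Hif1a had 11.4, 12.8 and 15.4 FPKM with DMOG and 12.5, 14.9 and 16.5 FPKM with PBS in liver RNA, and 279, 301 and 307 FPKM with DMOG and 283, 289.7 and 299.8 FPKM with PBS in retina RNA, with overlap in both. Its difference was -0.22 ± 0.095 (adjusted p = 0.101), and -0.27 ± 0.090 (adjusted p = 0.021) without replicate 5. Epas1, the gene of another alpha subunit, differed by -0.21 ± 0.17 (adjusted p = 0.424), with a 95% interval of -0.55 to 0.13. For Egln2, a further prolyl hydroxylase, the difference was -0.24 ± 0.095 (adjusted p = 0.0742), and it passed without replicate 5 at -0.26 ± 0.097 (adjusted p = 0.0415). Hif1an, the asparagine hydroxylase of HIF, differed by -0.17 ± 0.071 (adjusted p = 0.0864).

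Among 34 classical HIF targets, 21 had a higher response in liver RNA (labelled retina) and 0 a lower one, against 6.97% and 8.91% of all genes tested. Without replicate 5 the counts were 27 and 0. In liver RNA 29 rose, against 8.46% of all genes tested. In retina RNA (labelled liver) 4 rose, Ankrd37, Ddit4, Kdm3a and Ldha, against 0.36% of all genes tested. The 29 include Stc2, which averaged 0.220 FPKM with PBS in liver RNA and so passed the filter through treated libraries. The median response of the 34 was 1.15 (log2) in liver RNA and 0.18 in retina RNA, where 28 of them lay above 0, as did 57.2% of all genes tested. Without Liver_DMOG replicate 4, 2 of the 34 passed in retina RNA. By library, the mean level of the 34 in retina RNA ran from 4.03 to 4.49 (log2) with DMOG and from 3.82 to 4.26 with PBS, so those groups overlap.

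**Figure D2:**
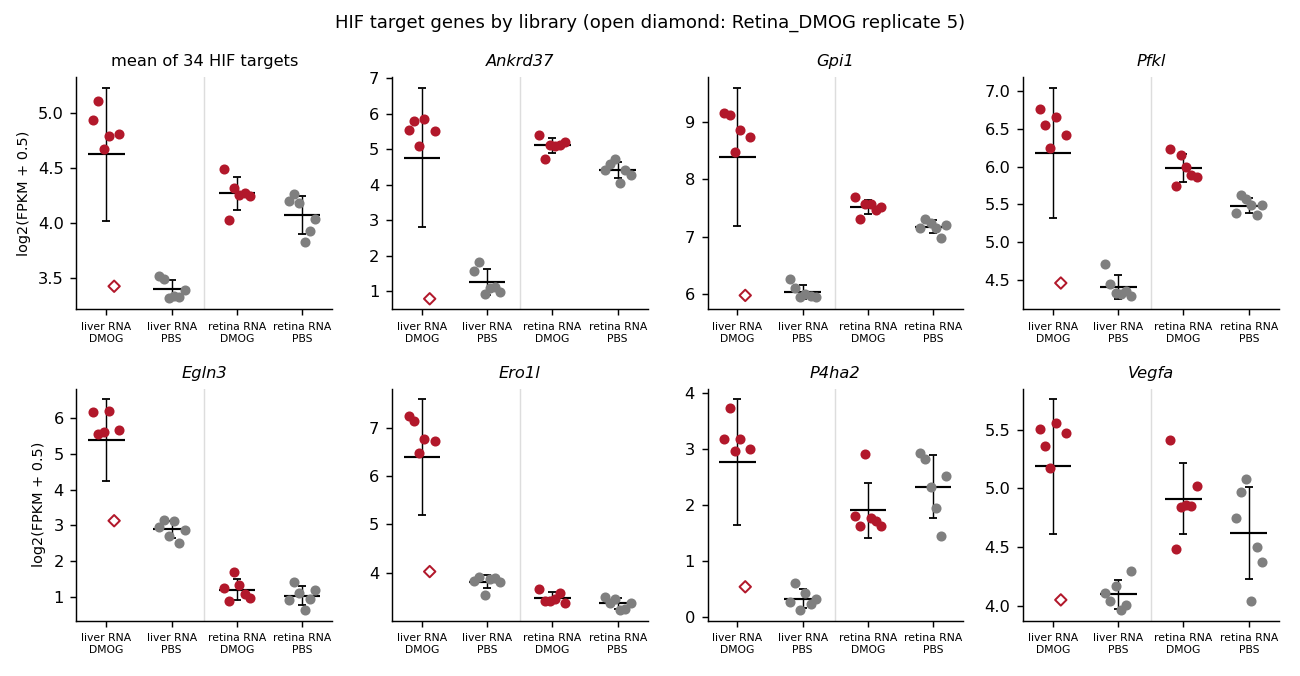
Levels on the log2(FPKM + 0.5) scale are shown for the mean of 34 HIF targets and for 7 genes, 6 libraries per group, with the group mean as a bar and the SD as whiskers. In liver RNA (labelled retina) 5 DMOG libraries stand above PBS in each panel and replicate 5 (open diamond, 3.42 in the first panel) lies at or near the PBS libraries, while in retina RNA (labelled liver) DMOG and PBS lie closer together.

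The targets called in both tissues had their larger response in liver RNA. Ankrd37, an ankyrin repeat gene that HIF induces directly, had 1.23, 45.9 and 56.9 FPKM with DMOG and 1.41, 1.65 and 3.07 FPKM with PBS in liver RNA (labelled retina). Ankrd37 levels in retina RNA (labelled liver) were 26.1, 34.6 and 41.6 FPKM with DMOG and 16.2, 20.9 and 26.2 FPKM with PBS. The lowest DMOG value of liver RNA is again replicate 5, below every PBS library, and the other 5 had 33.9 to 56.9 FPKM. In retina RNA the highest PBS value just exceeds the lowest DMOG value. Its responses were 3.52 ± 0.61 in liver RNA (adjusted p = 0.0012) and 0.69 ± 0.11 in retina RNA (adjusted p = 0.00427), a difference of 2.82 ± 0.64 (adjusted p = 0.00327). Without replicate 5 the difference was 3.62 ± 0.21.

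Ddit4, a stress-induced inhibitor of mTOR signalling, rose in both tissues. It had 2.41, 9.399 and 15.6 FPKM with DMOG and 2.28, 2.91 and 3.65 FPKM with PBS in liver RNA, and 57.8, 68.5 and 80.1 FPKM with DMOG and 39.4, 51.7 and 58.1 FPKM with PBS in retina RNA, where the groups overlap slightly. The responses of 1.37 ± 0.27 and 0.45 ± 0.090 differed by 0.92 ± 0.29 (adjusted p = 0.0304), and that adjusted p ran from 1.31e-06 to 0.0829 over the alternatives. Kdm3a, a histone demethylase that HIF induces, had responses of 0.73 ± 0.14 in liver RNA and 0.39 ± 0.063 in retina RNA. Its difference of 0.35 ± 0.15 did not pass with all libraries (adjusted p = 0.116) and passed without replicate 5 (0.50 ± 0.10, adjusted p = 0.000298). Ldha, which makes the lactate dehydrogenase subunit typical of glycolytic tissue, rose by 0.68 ± 0.12 in liver RNA and 0.32 ± 0.064 in retina RNA, and no DMOG library overlapped a PBS library in either tissue. Its difference of 0.36 ± 0.13 had an adjusted p = 0.0614, and adjusted p = 0.00605 without replicate 5. Kdm3a and Ldha are given because they complete the 4 targets called in retina RNA.

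Other targets rose in liver RNA and did not pass in retina RNA. Ero1l, the oxidase that drives disulfide formation in the endoplasmic reticulum, had 15.7, 107 and 151 FPKM with DMOG and 11.1, 13.9 and 14.6 FPKM with PBS in liver RNA (labelled retina). Ero1l levels in retina RNA (labelled liver) were 9.84, 10.3 and 12.2 FPKM with DMOG and 8.84, 9.87 and 10.8 FPKM with PBS. All 6 DMOG libraries of liver RNA, replicate 5 included, were above the PBS libraries, and the retina groups overlap. The difference was 2.47 ± 0.39 (adjusted p = 0.00017). Efna1, the ligand ephrin-A1, had 32.4, 142 and 218 FPKM with DMOG and 16.4, 21.4 and 30.9 FPKM with PBS in liver RNA, and 2.15, 3.55 and 4.36 FPKM with DMOG and 2.75, 3.21 and 5.34 FPKM with PBS in retina RNA. It showed the same pattern of groups as Ero1l, with a difference of 2.43 ± 0.36 (adjusted p = 0.00017). Bnip3, which marks mitochondria for mitophagy, had 59.2, 362 and 565 FPKM with DMOG and 45.5, 56.00 and 66.8 FPKM with PBS in liver RNA, and 76.9, 86.98 and 124 FPKM with DMOG and 48.7, 74.98 and 91.6 FPKM with PBS in retina RNA. Its responses of 2.39 ± 0.36 and 0.39 ± 0.17 differed by 2.00 ± 0.42 (adjusted p = 0.00152). Fam162a, a mitochondrial protein gene induced by hypoxia, differed by 1.71 ± 0.29 (adjusted p = 0.000315), and Slc2a1, the glucose transporter GLUT1, by 1.14 ± 0.25 (adjusted p = 0.00265). Without replicate 5 the differences were 2.94 for Ero1l, 2.78 for Efna1, 2.46 for Bnip3, 2.05 for Fam162a and 1.39 for Slc2a1.

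Vegfa, the main angiogenic growth factor, had 16.1, 42.3 and 46.7 FPKM with DMOG and 15.1, 16.3 and 19.1 FPKM with PBS in liver RNA (labelled retina). Vegfa levels in retina RNA (labelled liver) were 21.9, 28.4 and 42.1 FPKM with DMOG and 15.99, 24.2 and 33.4 FPKM with PBS, and these groups overlap. Its response was 1.09 ± 0.19 (adjusted p = 0.00127) in liver RNA and 0.29 ± 0.17 (adjusted p = 0.457) in retina RNA. The difference of 0.80 ± 0.27 had an adjusted p = 0.038, which ran from 0.000338 to 0.074 over the alternatives and missed 0.05 in 17 of 38. Of 25 angiogenic signals 4 had a higher and 1 a lower response in liver RNA, against 6.97% and 8.91% of all genes tested. The counts were 6 and 2 without replicate 5 and 2 and 2 at an equal total. With all libraries and besides Vegfa and Efna1 the signals counted are Apln, a ligand of endothelial cells (1.82 ± 0.43), Flt1, a VEGF receptor (0.46 ± 0.16, adjusted p = 0.044), and Cxcl12, a chemokine (-0.49 ± 0.16, adjusted p = 0.0315), which was lower. Apln averaged 0.431 FPKM with PBS in liver RNA, under the filter, and entered through treated libraries, so it is given without a test. Of 16 endothelial identity genes, 0 were higher and 0 lower, with 1 and 0 at an unadjusted p under 0.05, and 2 and 0 passed without replicate 5. Within liver RNA 5 of the 16 rose and 0 fell, against 8.46% and 11.5% of all genes tested. The count of 5 was 7 without replicate 5, against 16.6% of all genes, and 1 at an equal total.

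Some targets had retina responses that were sizeable and did not pass. Ak4, a mitochondrial adenylate kinase, had 0.64 ± 0.18 in liver RNA and 0.58 ± 0.25 in retina RNA (adjusted p = 0.323), and the difference of 0.068 ± 0.32 has a 95% interval of -0.58 to 0.72. Slc16a3, a lactate exporter, had 1.36 ± 0.35 in liver RNA and 0.90 ± 0.24 in retina RNA (adjusted p = 0.0893), with a difference of 0.46 ± 0.44 and an interval of -0.43 to 1.35. Ndufa4l2, which lowers electron transport under hypoxia, had 1.52 ± 0.29 and 0.65 ± 0.20, and the difference of 0.87 ± 0.36 did not pass with all libraries and passed without replicate 5 (1.21 ± 0.26, adjusted p = 0.000672). These genes were picked after their values were seen.

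HIF binds a short core, ACGTG or GCGTG, so the promoters of 4 responding genes are shown, of which Ankrd37 and Pfkl rose in both tissues and Egln3 and Ero1l had a called response in liver RNA and not in retina RNA. Each runs 5′ to 3′ from 250 bases before to 50 bases after the start that RefSeq lists in GRCm38.p6, which is not the build of the files. Capitals mark the core on either strand, overlapping matches included, so that its reverse complement is also in capitals. They lie at chr8:45999801-46000100 on the minus strand (Ankrd37), chr10:78009758-78010057 on the minus strand (Pfkl), chr12:54203825-54204124 on the minus strand (Egln3) and chr14:45318523-45318822 on the minus strand (Ero1l, listed as Ero1a).
Ankrd37: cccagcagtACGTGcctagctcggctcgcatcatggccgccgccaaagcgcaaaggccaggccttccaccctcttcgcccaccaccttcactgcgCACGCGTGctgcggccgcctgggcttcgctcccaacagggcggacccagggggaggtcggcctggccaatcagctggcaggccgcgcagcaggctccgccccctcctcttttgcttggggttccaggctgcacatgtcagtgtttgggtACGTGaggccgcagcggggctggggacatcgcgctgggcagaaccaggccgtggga
Pfkl: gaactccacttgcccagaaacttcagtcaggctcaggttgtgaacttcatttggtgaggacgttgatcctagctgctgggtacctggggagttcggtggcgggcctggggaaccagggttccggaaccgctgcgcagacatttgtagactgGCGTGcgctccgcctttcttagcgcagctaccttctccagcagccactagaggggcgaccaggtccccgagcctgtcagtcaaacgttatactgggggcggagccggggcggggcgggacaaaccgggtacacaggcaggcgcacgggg
Egln3: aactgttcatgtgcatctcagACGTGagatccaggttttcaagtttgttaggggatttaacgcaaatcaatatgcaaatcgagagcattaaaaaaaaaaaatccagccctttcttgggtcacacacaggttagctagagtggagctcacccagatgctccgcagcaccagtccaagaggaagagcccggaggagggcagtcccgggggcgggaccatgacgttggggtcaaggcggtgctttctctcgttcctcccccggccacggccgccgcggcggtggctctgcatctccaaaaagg
Ero1l: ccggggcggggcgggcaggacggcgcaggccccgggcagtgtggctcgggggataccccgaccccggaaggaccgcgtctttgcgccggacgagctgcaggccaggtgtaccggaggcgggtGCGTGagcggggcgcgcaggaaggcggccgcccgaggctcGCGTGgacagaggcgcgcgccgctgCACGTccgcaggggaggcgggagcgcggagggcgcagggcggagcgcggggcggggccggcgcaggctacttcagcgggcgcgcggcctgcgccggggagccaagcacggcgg
A core stood in the promoters of 27 of 30 matched HIF targets (90.0%), of 355 of 511 matched genes with the larger response in liver RNA that was above 0 (69.5%), of 5849 of 8926 matched genes of all those tested (65.5%) and of 11836 of all 27025 promoters of this length (43.8%). The windows of Gpi1 and Aldoa, both called in the 2 tissues, held none of these letters. A match describes the letters in the window and was not related to binding.

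Glycolysis supplied 5 of the 13 genes that rose in both tissues. Of 22 members tested, 12 had a higher response in liver RNA (labelled retina) and 0 a lower one, against 6.97% and 8.91% of all genes. Without replicate 5 the counts were 16 and 2. With all libraries 14 rose in liver RNA, against 8.46% of all genes. In retina RNA (labelled liver) Gpi1, Pfkl, Aldoa, Gapdh and Ldha rose and Eno3, the muscle enolase gene, fell by 0.41 ± 0.096 (log2, adjusted p = 0.0431). Of all genes tested 0.36% rose and 0.513% fell there. The median response of the 22 was 0.95 in liver RNA and 0.18 in retina RNA. The retina count of 5 was 1 to 3 without Liver_PBS replicate 1, 2, 3, 5 or 6 or Liver_DMOG replicate 1, 2, 4, 5 or 6.

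Gpi1, the glucose phosphate isomerase gene, had 62.5, 442 and 568 FPKM with DMOG and 61.1, 62.9 and 76.03 FPKM with PBS in liver RNA (labelled retina). Gpi1 levels in retina RNA (labelled liver) were 158, 186 and 206 FPKM with DMOG and 126, 144 and 158 FPKM with PBS, and every DMOG library there was above every PBS library. The responses of 2.34 ± 0.37 and 0.35 ± 0.075 differed by 1.99 ± 0.39 (adjusted p = 0.000895). Pfkl, the liver-type phosphofructokinase that commits glucose to glycolysis, had 21.4, 89.2 and 108 FPKM with DMOG and 18.99, 19.7 and 25.6 FPKM with PBS in liver RNA, and 53.2, 60.8 and 74.6 FPKM with DMOG and 40.4, 44.4 and 48.5 FPKM with PBS in retina RNA. Aldoa, an aldolase gene, had 70.7, 338 and 366 FPKM with DMOG and 68.7, 81.98 and 107 FPKM with PBS in liver RNA, and 929, 1013 and 1175 FPKM with DMOG and 756, 812 and 872 FPKM with PBS in retina RNA. In both genes the retina groups do not overlap, and replicate 5 sits within the PBS range of liver RNA. The difference was 1.28 ± 0.29 for Pfkl (adjusted p = 0.00355) and 1.31 ± 0.32 for Aldoa (adjusted p = 0.00569). Without replicate 5 it was 2.48 for Gpi1, 1.63 for Pfkl and 1.69 for Aldoa. Gapdh had responses of 0.97 ± 0.17 in liver RNA and 0.29 ± 0.065 in retina RNA, and a difference of 0.68 ± 0.18 (adjusted p = 0.00901). On the log2 scale the retina response was 14.9% of the liver response for Gpi1, 19.7% for Ankrd37, 20.6% for Aldoa, 27.9% for Pfkl, 29.8% for Gapdh and 46.8% for Ldha.

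Pgk1, which makes the first ATP of the pathway, differed by 1.18 ± 0.24 (adjusted p = 0.00142) with no called change in retina RNA. Aldoc, the brain aldolase, differed by 1.14 ± 0.23 (adjusted p = 0.00131). The list counts that follow are to be read against 6.97% higher and 8.91% lower of all genes tested. Those without replicate 5 are to be read against 13.3% and 15.5%. Of 17 genes that handle glucose, lactate and pyruvate, 5 were higher and 1 lower (6 and 2 without replicate 5), with Slc16a1, a lactate transporter, at 0.87 ± 0.20 (adjusted p = 0.00367) and its chaperone Bsg at 0.72 ± 0.19 (adjusted p = 0.0113). Of 18 genes of the mitochondrial switch and mitophagy, 4 were higher and 0 lower (8 and 0 without replicate 5), the others beside Bnip3 and Fam162a being Bnip3l, a mitophagy receptor (0.92 ± 0.21, adjusted p = 0.00352), and Higd1a, a partner of respiratory complexes (1.05 ± 0.20, adjusted p = 0.000775). The list has 1 call in retina RNA, a rise of Cox4i2, the hypoxic isoform of a cytochrome oxidase subunit (0.67 ± 0.16, adjusted p = 0.0429). Of 30 subunits of oxidative phosphorylation 0 were higher and 0 lower by limma, with 1 and 0 at an unadjusted p under 0.05 and a median difference of 0.049 (-0.027 at an equal total).

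**Figure D3:**
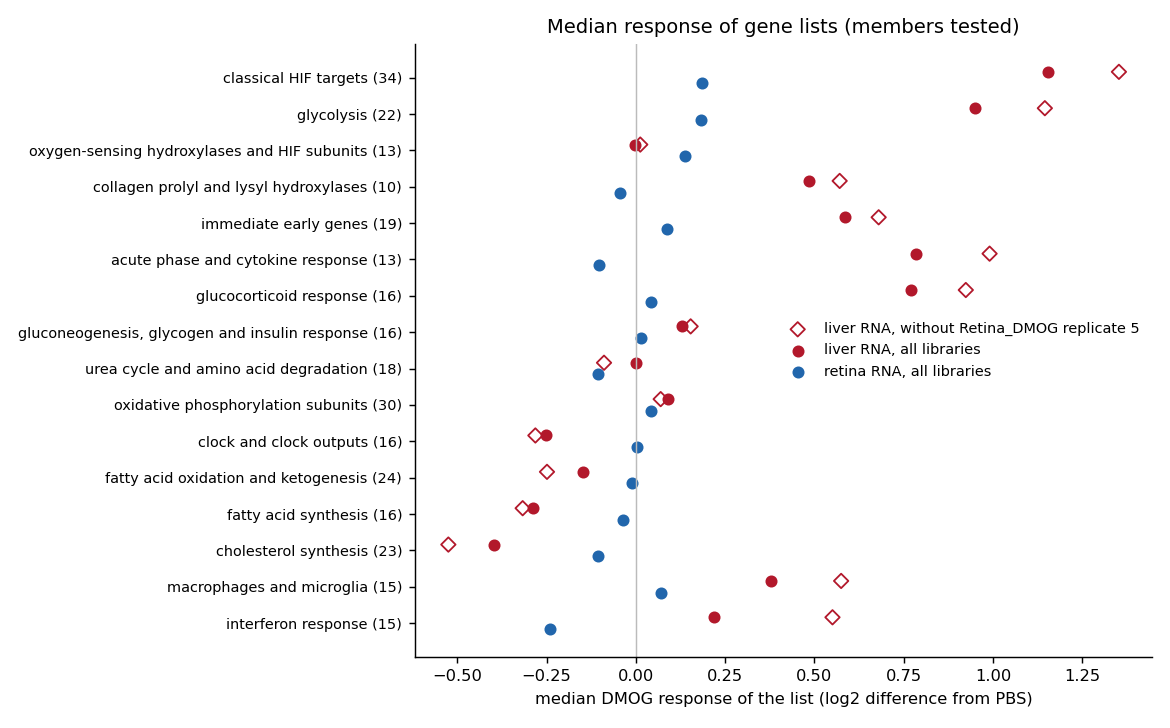
Each row gives the median log2 difference between DMOG and PBS over the tested members of a gene list, with their number in brackets, for liver RNA (labelled retina) with and without replicate 5 and for retina RNA (labelled liver). HIF targets reach 1.15 in liver RNA (1.35 without replicate 5) and 0.18 in retina RNA, and cholesterol synthesis lies at -0.40 in liver RNA and -0.11 in retina RNA.

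Enzymes that hydroxylate collagen are oxoglutarate-dependent too, and several are HIF targets. Of 10 collagen hydroxylases and lysyl oxidases, 6 had a higher response in liver RNA (labelled retina) and 0 a lower one, against 6.97% and 8.91% of all genes tested. The count of 6 was 4 at an equal total and 7 without replicate 5. Among the 10 genes 0 passed in retina RNA (labelled liver), with 1 higher and 1 lower at an unadjusted p under 0.05. P4ha2, a collagen prolyl hydroxylase, had 0.959, 8.03 and 12.9 FPKM with DMOG and 0.594, 0.729 and 1.02 FPKM with PBS in liver RNA, and 2.59, 2.85 and 7.05 FPKM with DMOG and 2.24, 4.87 and 7.11 FPKM with PBS in retina RNA. The highest DMOG value of retina RNA belongs to Liver_DMOG replicate 3, and both retina groups overlap. The difference was 2.86 ± 0.45 (adjusted p = 0.00017). P4ha1, of the same family, differed by 0.98 ± 0.26 (adjusted p = 0.00894), the lysyl oxidase Loxl2 by 0.64 ± 0.19 (adjusted p = 0.0199) and the lysyl hydroxylase Plod3 by 0.59 ± 0.18 (adjusted p = 0.0258).

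Of 19 chromatin and RNA dioxygenases, which share the cofactor, 4 had a higher and 2 a lower response in liver RNA (labelled retina) (8 and 2 without replicate 5, 2 and 3 at an equal total). Over all genes tested the shares were 6.97% higher and 8.91% lower with the values as deposited. Alkbh5, which removes methyl groups from adenosine in RNA, had 18.4, 38.7 and 45.7 FPKM with DMOG and 18.2, 19.3 and 20.3 FPKM with PBS in liver RNA, and 33.3, 35.4 and 41.3 FPKM with DMOG and 30.7, 33.2 and 36.6 FPKM with PBS in retina RNA (labelled liver). Its difference was 0.74 ± 0.16 (adjusted p = 0.00241). The histone demethylase Kdm4b differed by 0.54 ± 0.14 (adjusted p = 0.00677). Kdm4a, from the same family, differed by -0.25 ± 0.079 (adjusted p = 0.0313) and passed in neither tissue alone.

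Acute phase and cytokine genes had a higher response in liver RNA (labelled retina) in 8 of 13 and a lower one in 0, against 6.97% and 8.91% of all genes tested. The 13 are those of 31 listed that could be tested in both tissues. Saa1, Saa2, Hp, Orm1, Crp and Fgb are among those that could not. Of the 13, 12 were higher and 0 lower without replicate 5. In retina RNA (labelled liver) 0 passed, with 1 higher and 2 lower at an unadjusted p under 0.05, and the median was -0.10. A2m, alpha-macroglobulin, had 4.51, 36.3 and 78.3 FPKM with DMOG and 3.21, 4.398 and 6.95 FPKM with PBS in liver RNA, and 1.29, 2.28 and 2.93 FPKM with DMOG and 1.21, 2.75 and 3.61 FPKM with PBS in retina RNA. Its 5 other DMOG libraries of liver RNA lay above the PBS libraries, replicate 5 lay among them, and the difference was 2.67 ± 0.54 (adjusted p = 0.00123). Lcn2, a lipocalin that withholds iron from bacteria and that neutrophils also make, had 104, 464 and 1041 FPKM with DMOG and 74.5, 130.4 and 196 FPKM with PBS in liver RNA and differed by 2.12 ± 0.50 (adjusted p = 0.00407). Stat3, the transcription factor of interleukin signalling, differed by 0.61 ± 0.095 (adjusted p = 0.00017), with no overlap between its liver RNA groups even with replicate 5. The receptor gene Il1r1 differed by 1.02 ± 0.17 (adjusted p = 0.000308) and the protease inhibitor gene Serpina3n by 1.30 ± 0.25 (adjusted p = 0.000895). In retina RNA Il1r1 averaged 0.692 FPKM with DMOG and 0.848 FPKM with PBS, and Serpina3n 0.518 and 0.794 FPKM, near the filter of 0.5 FPKM. Lcn2 averaged 1.804 FPKM with DMOG and 2.367 FPKM with PBS there. Changes of such low genes are understated on the scale used, so these differences say little about the response in retina RNA. Beside these, the summed level of 4 neutrophil markers in liver RNA ran from 812.7 to 2338 FPKM with DMOG and from 742.4 to 1707 FPKM with PBS. That of 4 Kupffer cell and macrophage markers was 216 FPKM in DMOG replicate 5 and 419.9 to 603 FPKM in the other 5 DMOG libraries, against 273 to 507 FPKM with PBS, where 5 of 6 libraries had at most 381 FPKM. Of 15 macrophage and microglia genes, 0 rose in liver RNA with all libraries and 10 without replicate 5, against 8.46% and 16.6% of all genes tested. The part of these cells in these results was not tested.

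Immediate early genes, among the first transcripts to respond to stimuli, had 8 of 19 higher and 1 lower in the difference, against 6.97% and 8.91% of all genes tested. Without replicate 5 the counts were 13 and 1. Of the 19 genes 0 passed in retina RNA (labelled liver), with 5 higher at an unadjusted p under 0.05. Dusp1, a phosphatase of MAP kinases, had 5.14, 13.1 and 18.2 FPKM with DMOG and 3.41, 3.89 and 5.42 FPKM with PBS in liver RNA (labelled retina), and 5.92, 6.37 and 7.69 FPKM with DMOG and 5.44, 6.27 and 7.75 FPKM with PBS in retina RNA. It differed by 1.44 ± 0.27 (adjusted p = 0.00067), with replicate 5 within the PBS range. Fosl2, a subunit of the transcription factor AP-1, differed by 1.04 ± 0.25 (adjusted p = 0.00482) and Nr4a1, an orphan nuclear receptor, by 1.33 ± 0.32 (adjusted p = 0.00484). Ier2 went the other way, with -0.66 ± 0.15 (adjusted p = 0.00317). Of 16 glucocorticoid-responsive genes 6 were higher and 1 lower (8 and 3 without replicate 5, 6 and 2 at an equal total). Cdkn1a, the cell cycle inhibitor p21, differed by 1.49 ± 0.31 (adjusted p = 0.0014), while Fkbp5, a co-chaperone of the glucocorticoid receptor, differed by -0.94 ± 0.18 (adjusted p = 0.000775).

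Stress and growth lists were divided, and their counts are to be read against 6.97% higher and 8.91% lower of all genes tested. The shares were 13.3% and 15.5% without replicate 5, and at an equal total 483 genes were higher and 1603 lower. Of 21 genes of endoplasmic reticulum oxidation and the integrated stress response 5 were higher and 2 lower (3 and 2 at an equal total), with Ppp1r15a, a phosphatase subunit that restarts translation, at 0.83 ± 0.23 (adjusted p = 0.011) and Herpud1, a degradation factor of that compartment, at -0.90 ± 0.18 (adjusted p = 0.00131). Of 21 genes of serine and one-carbon metabolism 5 were higher and 5 lower (8 and 5 without replicate 5, 3 and 5 at an equal total). Mthfd1l, a mitochondrial enzyme of the folate cycle, had responses of 0.84 ± 0.16 in liver RNA and -0.26 ± 0.14 in retina RNA (adjusted p = 0.000825 for the difference). Gclc, the rate-limiting enzyme of glutathione synthesis, differed by -0.92 ± 0.20 (adjusted p = 0.00208). Of 19 p53 targets 5 were higher and 1 lower (7 and 2 without replicate 5, 5 and 2 at an equal total), the lower one with all libraries being Sesn2 (-0.67 ± 0.17, adjusted p = 0.0063). Of 14 genes of iron handling 3 were higher and 2 lower (2 and 3 at an equal total). Slc11a2, the iron importer DMT1, differed by 0.47 ± 0.14 (adjusted p = 0.0188), and Tfrc, the transferrin receptor, is its only call in retina RNA (0.42 ± 0.083, adjusted p = 0.018).

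Some genes of lipid synthesis had a lower response in liver RNA (labelled retina). Of 23 genes of cholesterol synthesis, 7 had a lower and 2 a higher response there, against 8.91% and 6.97% of all genes tested. Of the 23, 12 were lower and 2 higher without replicate 5, against 15.5% and 13.3% of all genes. At an equal total 8 and 1 were, where 1603 of all genes were lower and 483 higher. In retina RNA (labelled liver) 0 passed, and 8 were lower at an unadjusted p under 0.05, which 1892 of 13779 genes reached there in either direction. The medians were -0.40 in liver RNA and -0.11 in retina RNA. Mvk, mevalonate kinase, had 5.06, 6.07 and 12.3 FPKM with DMOG and 7.83, 12.1 and 14.3 FPKM with PBS in liver RNA, and 21.2, 23.8 and 25.3 FPKM with DMOG and 21.8, 23.3 and 26.3 FPKM with PBS in retina RNA, with overlap in both tissues. Its difference was -0.72 ± 0.19 (adjusted p = 0.0101). Insig1, which holds the sterol-sensing complex in the endoplasmic reticulum, rose in liver RNA and differed by 1.44 ± 0.23 (adjusted p = 0.00017).

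Among 16 genes of fatty acid synthesis 5 had a lower response in liver RNA (labelled retina) and 0 a higher one, against 8.91% and 6.97% of all genes. Without replicate 5 the counts of fatty acid synthesis were 7 and 2, against 15.5% lower and 13.3% higher of all genes. Srebf1, its master transcription factor, had 26.2, 30.5 and 45.1 FPKM with DMOG and 55.97, 62.5 and 64.7 FPKM with PBS in liver RNA, and 28.9, 37.6 and 39.01 FPKM with DMOG and 25.8, 29.9 and 38.3 FPKM with PBS in retina RNA (labelled liver). All 6 DMOG libraries of liver RNA lay below all 6 PBS libraries, and the difference was -1.09 ± 0.19 (adjusted p = 0.00031). Fasn, the fatty acid synthase gene, had 4.88, 7.605 and 9.94 FPKM with DMOG and 10.4, 14.1 and 16.6 FPKM with PBS in liver RNA, again with no overlap, and differed by -0.97 ± 0.19 (adjusted p = 0.000805). Mid1ip1, an activator of acetyl-CoA carboxylase, differed by -1.32 ± 0.23 (adjusted p = 0.000374). In the list of fatty acid oxidation and ketogenesis, 3 of 24 were lower and 1 higher, near the 8.91% and 6.97% of all genes tested. The counts were 8 lower and 2 higher without replicate 5, against 15.5% and 13.3% of all genes. At an equal total they were 6 and 1, where 1603 of all genes were lower and 483 higher. Those called with all libraries include Cpt1a, the carnitine transferase that admits fatty acids to mitochondria (-0.72 ± 0.17, adjusted p = 0.00355), and Ppargc1a, a coactivator of mitochondrial genes (0.73 ± 0.18, adjusted p = 0.00511).

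Enzymes that make or store glucose, with insulin signalling genes, had 6 of 16 higher and 2 lower (7 and 4 without replicate 5, 6 and 4 at an equal total). Of 22 listed, those that could not be tested in both tissues include Pck1, G6pc and Fbp1. Over all genes tested 6.97% were higher and 8.91% lower with the values as deposited. Gbe1, the glycogen branching enzyme, had 14.9, 42.2 and 51.7 FPKM with DMOG and 11.96, 12.6 and 16.5 FPKM with PBS in liver RNA (labelled retina), and 18.4, 21.6 and 23.1 FPKM with DMOG and 17.7, 20.99 and 22.4 FPKM with PBS in retina RNA (labelled liver). The difference was 1.40 ± 0.24 (adjusted p = 0.000308). Ugp2, which makes the sugar donor of glycogen, differed by 0.92 ± 0.16 (adjusted p = 0.00045), and Irs2, an insulin receptor substrate, by 1.12 ± 0.22 (adjusted p = 0.000804). Of 18 genes of the urea cycle and amino acid degradation, 7 were higher and 0 lower (7 and 2 without replicate 5, 7 and 1 at an equal total). The list names 27, and Cps1, Otc and Nags are among those that could not be tested in both tissues. Arg1, the arginase that releases urea, had 236, 479.8 and 578 FPKM with DMOG and 150.3, 181 and 206 FPKM with PBS in liver RNA, with no overlap, and differed by 1.32 ± 0.26 (adjusted p = 0.000943). Its levels in retina RNA were 0.527, 0.584 and 0.741 FPKM with DMOG and 0.249, 0.733 and 1.17 FPKM with PBS. Got1, a transaminase of the malate shuttle, differed by 1.28 ± 0.24 (adjusted p = 0.000758).

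Of 16 clock and clock output genes, 5 had a lower and 2 a higher response in liver RNA (labelled retina), against 8.91% and 6.97% of all genes tested. Without replicate 5 the counts were 6 lower and 4 higher, against 15.5% and 13.3% of all genes tested. In retina RNA (labelled liver) 0 of the 16 passed, with 1 at an unadjusted p under 0.05. Hlf, a transcription factor of clock output, had 1.35, 2.14 and 6.67 FPKM with DMOG and 6.795, 9.26 and 9.72 FPKM with PBS in liver RNA, and 6.05, 7.26 and 8.97 FPKM with DMOG and 6.61, 7.95 and 11.1 FPKM with PBS in retina RNA. The liver RNA groups do not overlap, and the difference was -1.45 ± 0.26 (adjusted p = 0.00054). Dbp, of the same family, differed by -0.98 ± 0.29 (adjusted p = 0.0202), and Nr1d2, the repressor REV-ERB beta, by -0.65 ± 0.17 (adjusted p = 0.00996). Nfil3, which opposes that family, differed by 0.62 ± 0.15 (adjusted p = 0.00423). The times of day at which samples were taken are not given in the labels used here.

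The lowest differences named by the rule were falls in liver RNA (labelled retina). Bex2, an adaptor protein gene, had 1.17, 2.33 and 21.7 FPKM with DMOG and 9.65, 14.2 and 26.5 FPKM with PBS in liver RNA, and 182, 196 and 226 FPKM with DMOG and 175, 205 and 222 FPKM with PBS in retina RNA (labelled liver). The highest DMOG value is replicate 5, and the other 5 libraries had at most 3.81 FPKM. Its difference was -1.98 ± 0.48 (adjusted p = 0.00521), and -2.49 ± 0.28 without replicate 5. Chka, the choline kinase that starts phosphatidylcholine synthesis, had 3.296, 4.43 and 19.1 FPKM with DMOG and 14.1, 18.8 and 22.9 FPKM with PBS in liver RNA and differed by -1.51 ± 0.30 (adjusted p = 0.00097). Arsg, a lysosomal sulfatase gene, differed by -1.51 ± 0.33 (adjusted p = 0.00209). Gldc, the glycine decarboxylase, had 18.9, 21.5 and 86.04 FPKM with DMOG and 56.6, 61.5 and 75.7 FPKM with PBS in liver RNA and differed by -1.43 ± 0.30 (adjusted p = 0.00172). Replicate 5 held the highest of the 12 values of Gldc, and the other 5 DMOG libraries lay below the PBS range. Fbxo21, Adck3, Pvrl1, Zfp385b, Shank2 and Pcdh1 differed by -1.27 to -1.12, with retina responses from -0.058 for Adck3 to 0.38 for Zfp385b that did not pass.

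In retina RNA (labelled liver) the largest responses were falls of lens genes. Crybb3, a lens crystallin gene, had 0.6599, 8.22 and 14.01 FPKM with DMOG and 0.5996, 0.779 and 1.34 FPKM with PBS in liver RNA (labelled retina), where the groups overlap. Crybb3 levels in retina RNA were 6.61, 37.6 and 163 FPKM with DMOG and 335, 1461 and 3921 FPKM with PBS, with no overlap, and the change there was in the other direction. The responses of 2.27 ± 0.47 in liver RNA (adjusted p = 0.00333) and -5.03 ± 0.85 in retina RNA (adjusted p = 0.00591) differed by 7.30 ± 1.02 (adjusted p = 0.000136). All 4 lens genes tested, Crybb3, Cryba4, Cryab and Bfsp2, fell in retina RNA, and every DMOG library there was below every PBS library. Because crystallin paralogs can share reads, single values are uncertain. Cryba4 differed by 5.75 ± 0.95 (adjusted p = 0.000305). Bfsp2, which builds the beaded filament of lens fibres, differed by 3.44 ± 0.71 (adjusted p = 0.00138). Cryab, a small heat shock protein of lens and other tissues, fell in liver RNA as well (-0.29 ± 0.087, adjusted p = 0.025), and its difference was 3.38 ± 0.69 (adjusted p = 0.00136).

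The amount of lens transcript in the retina RNA libraries (labelled liver) moved with this result. The summed level of 4 lens markers ran from 12.7 to 806 FPKM with DMOG and from 1635 to 18010 FPKM with PBS, with no overlap, and was at most 0.257 FPKM in any DMOG or PBS library of liver RNA (labelled retina). Its part in these falls was not tested, and fewer cells of a type in a sample and less RNA per cell cannot be told apart in bulk RNA. Liver_DMOG replicate 3 had the 806 FPKM, and it was the highest DMOG library for 86 of the 137 genes with the larger response in retina RNA and a value below 0 there. Of the 137, 37 passed the test in retina RNA, where 57 of all genes tested (0.513%) were called lower. The 137 were chosen for a fall there, so that count is not a separate result. The count of 137 was 88 without Liver_PBS replicate 1, 87 without Liver_PBS replicate 2 and 217 without Liver_PBS replicate 4.

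Nupr1, a stress-induced chromatin protein gene, had 2.28, 3.27 and 4.79 FPKM with DMOG and 2.15, 2.94 and 3.71 FPKM with PBS in liver RNA (labelled retina), against 0.934, 1.65 and 22.6 FPKM with DMOG and 38.5, 104 and 240.0 FPKM with PBS in retina RNA (labelled liver). The highest DMOG value of retina RNA is that of replicate 3 and still lies below the PBS range. Its difference was 5.15 ± 0.79 (adjusted p = 0.00017). Tmem40, a transmembrane protein gene, averaged under 0.5 FPKM with DMOG in retina RNA and passed the filter there through other libraries, so its difference of 3.40 ± 0.65 is given without a test. S100a4, a calcium-binding protein gene of motile cells, differed by 2.68 ± 0.52 (adjusted p = 0.000784). Anxa1, an anti-inflammatory annexin gene, had 3.83, 6.24 and 69.3 FPKM with DMOG and 12.7, 43.1 and 79.9 FPKM with PBS in retina RNA, where the highest DMOG value is once more replicate 3 and the groups overlap. Its retina response of -2.01 ± 0.59 did not pass (adjusted p = 0.111), while the difference did (2.35 ± 0.64, adjusted p = 0.0118). Without replicate 5 of liver RNA the differences were 5.24 for Nupr1, 3.41 for Tmem40, 2.88 for S100a4 and 2.36 for Anxa1. With PBS in retina RNA, Nupr1, Tmem40 and S100a4 were highest in replicates 1, 2 and 6, which had the highest lens marker sums (11220, 18010 and 10140 FPKM). Nupr1 had 192.6, 240.0 and 149.6 FPKM in these and 38.5 to 59.0 FPKM in the others. For Anxa1, replicate 3 lay above replicate 6. The part of lens RNA in these falls was not tested.

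**Figure D4:**
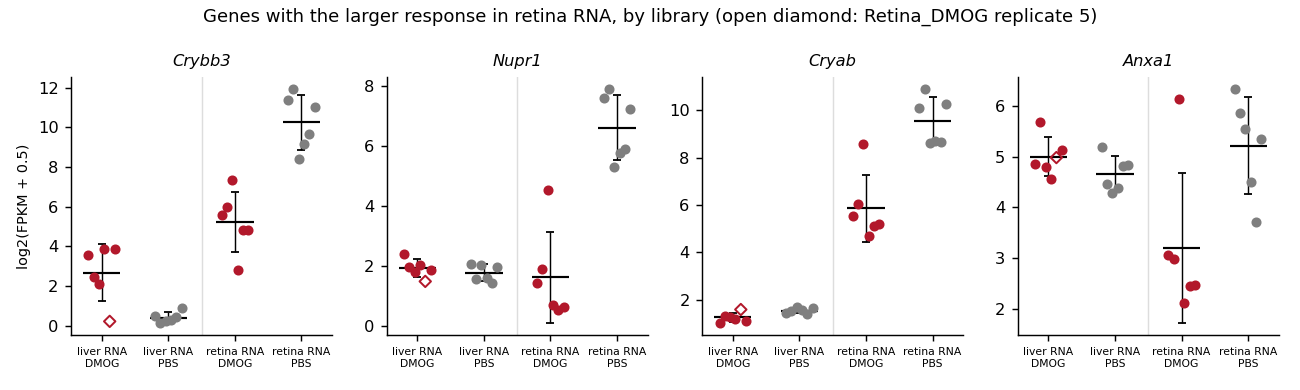
Levels of 4 genes with the larger response in retina RNA (labelled liver) are shown on the log2(FPKM + 0.5) scale, 6 libraries per group beside liver RNA (labelled retina), with the mean as a bar and the SD as whiskers. DMOG and PBS libraries of retina RNA do not overlap for Crybb3, Nupr1 and Cryab, and the highest DMOG point of retina RNA is replicate 3 in every panel.

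Of the 32 genes whose larger response was a value above 0 in retina RNA (labelled liver), 4 passed the test there, Grhpr, Abca1, Hist1h1e and Crym. Grhpr, a glyoxylate reductase gene, had 177, 259 and 359.6 FPKM with DMOG and 256, 277 and 366 FPKM with PBS in liver RNA (labelled retina), and 12.2, 17.2 and 18.3 FPKM with DMOG and 7.89, 10.8 and 12.6 FPKM with PBS in retina RNA, where the groups overlap slightly. The responses of -0.19 ± 0.13 in liver RNA and 0.64 ± 0.12 in retina RNA differed by -0.84 ± 0.18 (adjusted p = 0.00236). Abca1, the cholesterol exporter, had 9.25, 10.7 and 11.6 FPKM with DMOG and 6.54, 7.59 and 9.14 FPKM with PBS in retina RNA, with no overlap, and differed by -0.51 ± 0.11 (adjusted p = 0.00281). Hist1h1e, a linker histone gene with close paralogs, so that its own level is uncertain, differed by -0.50 ± 0.15 (adjusted p = 0.0178). Crym, the thyroid hormone binding protein mu-crystallin, differed by -0.44 ± 0.15 (adjusted p = 0.0493). These 4 were named after their values were seen. The count of 32 was 14 to 20 without Liver_DMOG replicate 2 or 4 or Liver_PBS replicate 1 or 2, 55 without Retina_DMOG replicate 5, 64 without Liver_DMOG replicate 1 and 94 without Liver_PBS replicate 4.

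Among the 9 genes that fell in both tissues, Gpd1, the glycerol phosphate dehydrogenase that links glycolysis to lipid, had 46.3, 66.7 and 141 FPKM with DMOG and 102, 132 and 168 FPKM with PBS in liver RNA (labelled retina). Gpd1 levels in retina RNA (labelled liver) were 0.572, 0.7700 and 0.931 FPKM with DMOG and 1.23, 1.96 and 3.46 FPKM with PBS, with no overlap. Its responses of -0.88 ± 0.20 and -0.99 ± 0.18 differed by 0.12 ± 0.27, with a 95% interval of -0.43 to 0.67, and the sign of that difference turned without replicate 5 (-0.081 ± 0.23). Bcar3, an adaptor of integrin signalling, fell by 0.83 ± 0.16 in liver RNA and by 0.35 ± 0.068 in retina RNA. Its difference of -0.47 ± 0.18 did not pass with all libraries and passed without replicate 5 (-0.66 ± 0.11, adjusted p = 2.79e-05). Eepd1 fell by 0.66 ± 0.13 in liver RNA and by 0.44 ± 0.077 in retina RNA, and Rasl11b, a small GTPase gene, by 0.74 ± 0.15 in liver RNA and 1.06 ± 0.20 in retina RNA. Fgfr3, a fibroblast growth factor receptor, fell by 0.39 ± 0.11 in liver RNA and by 1.67 ± 0.37 in retina RNA, a difference of 1.28 ± 0.40 (adjusted p = 0.0276). The other falls in both were those of Cryab, Ext1, Gpr125 and Perp. Liver_PBS replicates 1, 2 and 6 had the highest lens marker sums with PBS (11220, 18010 and 10140 FPKM, the others 1635 to 3147 FPKM). They also held the highest PBS values of Gpd1, Rasl11b and Fgfr3 in retina RNA. For Bcar3 and Eepd1, Liver_PBS replicate 3 lay above replicates 1 and 6. The part of lens RNA in these falls was not tested.

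Besides Crybb3, 1 gene was called in opposite directions. Tubb6, a beta-tubulin gene, had 25.4, 33.6 and 45.1 FPKM with DMOG and 19.3, 20.8 and 24.7 FPKM with PBS in liver RNA (labelled retina), with no overlap. Tubb6 levels in retina RNA (labelled liver) were 2.85, 3.51 and 4.59 FPKM with DMOG and 4.496, 6.36 and 11.2 FPKM with PBS, and these groups overlap slightly. The responses of 0.68 ± 0.13 and -0.82 ± 0.19 differed by 1.503 ± 0.23 (adjusted p = 0.00017). With PBS in retina RNA, Tubb6 was highest in replicates 1, 2 and 6 (9.74, 11.2 and 6.93 FPKM), which had the highest lens marker sums. The part of lens RNA in this fall was not tested. Without replicate 5, 7 genes were called in opposite directions.

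Genes that passed the filter in 1 table cannot enter the difference. Epo, the gene of the hormone that drives red cell production, passed it in liver RNA (labelled retina). There it had 17.2 to 24.6 FPKM in 5 DMOG libraries and was listed at 0 in replicate 5, against 0.0584 to 0.486 FPKM with PBS. In retina RNA (labelled liver) it had 0.0541 to 0.426 FPKM with DMOG and at most 0.395 FPKM with PBS. The liver RNA response was 4.06 ± 0.70, and 4.97 ± 0.19 without replicate 5. Of 1556 genes tested in liver RNA alone 312 were called, and of 2678 tested in retina RNA alone 50 were called. Epo and Fgf23, a phosphate-regulating hormone with a response of 2.53 ± 0.44, averaged 0.221 and 0.0151 FPKM with PBS, under the limit of 0.5 FPKM, so they entered only through treated libraries and are given without a test. The counts of called genes include such genes. Those of liver RNA also include Hamp, the iron hormone hepcidin (3.64 ± 0.85, adjusted p = 0.0062), Nr0b2, a nuclear receptor that represses bile acid synthesis (-3.01 ± 0.45, adjusted p = 0.000792), and Tdo2, a tryptophan dioxygenase (-2.63 ± 0.49, adjusted p = 0.0017). Those of retina RNA include lens genes, which held the 8 largest falls among named genes with at least 1 FPKM in a group. The largest was that of Mip, the lens water channel, at -6.48 ± 0.95 (adjusted p = 0.00329). Serpine3, a serine protease inhibitor gene, had the highest rise there (1.18 ± 0.28, adjusted p = 0.0482).

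Over the 3836 shared genes called in liver RNA (labelled retina) without replicate 5, that library lay within the range of the 6 PBS libraries in 67.4%, while the other 5 DMOG libraries, which unlike it took part in choosing these genes, did so in 9.98% to 24.95%. Its median response over these genes was -5.7% of the mean response of the other 5. Other measures also differed between groups. The DMOG libraries read as 4 female and 2 male in liver RNA and 2 female and 4 male in retina RNA (labelled liver), with 3 and 3 in each PBS group, and with a term for sex 1504 genes differed. Erythroid markers summed to 23.2 to 46.8 FPKM with DMOG and 10.5 to 19.2 FPKM with PBS in retina RNA, with no overlap, and of 5 erythroid genes tested 0 passed there, with 2 higher at an unadjusted p under 0.05.

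**Figure D5:**
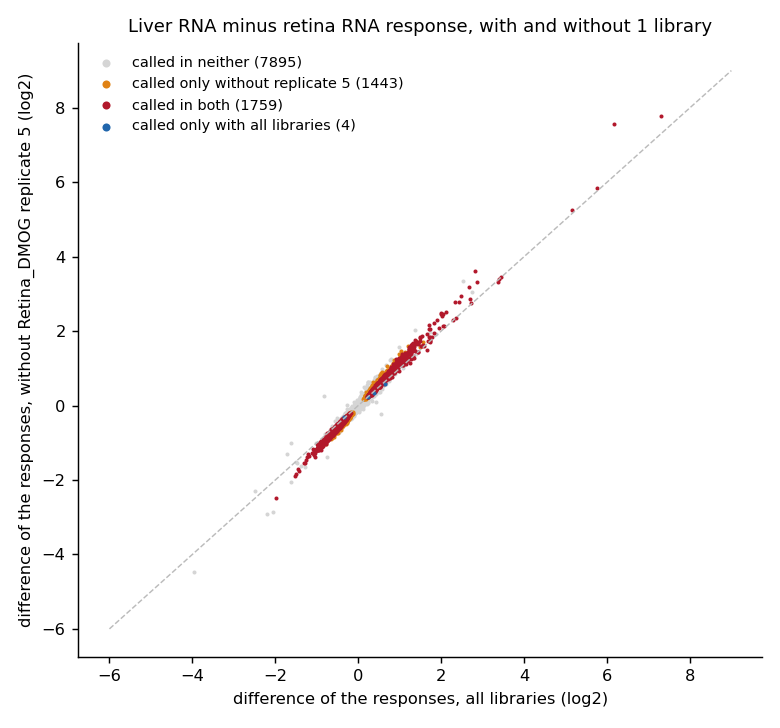
The difference of the responses (liver RNA, labelled retina, minus retina RNA, labelled liver) is plotted for 11101 genes, with all libraries on the horizontal axis and without Retina_DMOG replicate 5 on the vertical axis, both in log2. The 1759 genes called both ways (red) lie on the same side of 0 in both, and 1443 genes (orange) were called only without that library.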

How the data were processed

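Total RNA of mouse liver and retina was extracted with RNeasy and sequenced after TruSeq Stranded Total RNA preparation with Ribo-Zero Gold, per the labels' protocols. The deposited values are FPKM per gene and library, 1 table per tissue label. The submitters' processing notes name bcl2fastq 1.8.3, TopHat2 2, Cuffdiff 2.2.1 and mm9, and the annotation and library scaling are not given in the sources used here. The files hold no read counts, so depth is unknown. Totals ran from 433021 to 540324 FPKM in libraries labelled retina and from 542785 to 617853 FPKM in those labelled liver.

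The analysis used genes averaging 0.5 FPKM or more and the scale log2(FPKM + 0.5), on which changes of low genes are understated. Responses were fitted per table (3 group means, 18 libraries) and their difference over all 36 libraries (6 group means, 11101 genes) in limma 3.58.1 (R 4.3.3, statmod 1.5.0), with a mean trend, two-sided p-values adjusted over all genes of a fit by Benjamini-Hochberg; called means an adjusted p under 0.05. Steps were tested on simulated data. Figures used Python 3.11.15 and matplotlib 3.10.9.

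Genes are named by rule: up to 12 highest and 12 lowest called differences with at least 1 FPKM in a group of each table and 5 of 6 DMOG libraries on 1 side of the PBS mean, up to 6 called in both tissues each way, those called in opposite directions, 2 to 4 members per list with the smallest p, and Egln1, Egln2, Egln3, Hif1an, Hif1a, Epas1, Arnt, Vhl, Vegfa and Epo. Other names were picked after their values were seen. The members and lists were chosen with earlier results of these data known. Small RNAs, unnamed and Y-linked genes were passed over, and some named genes are not reported here. Alternatives covered the pseudocount, the filter, scaling, the variance model, sex, replicate numbers and leaving out each library.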

Additional observations from a re-analysis of the deposited data

Results flagged for a closer look

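Single libraries stood apart from the other 5 of their group in 33 of 176 combinations of a named gene and a group, where the gap to the nearest library was more than 0.625 of the range of the group. That limit would mark about 1 in 20 groups of normally distributed values. The values here are FPKM of genes mostly chosen for their responses, so that rate does not apply to them. In the DMOG group of liver RNA (labelled retina) 15 genes were marked, 14 of them for replicate 5. That library was the highest, with the gap as a share of the range in brackets, for Bex2 (0.871), Arsg (0.851), Chka (0.874), Hlf (0.755), Gldc (0.896), Mid1ip1 (0.855), Fbxo21 (0.661), Shank2 (0.747), Pcdh1 (0.637), Bcar3 (0.74) and Eepd1 (0.8), and the lowest for Aldoa (0.89), Vegfa (0.64) and Epo (0.697). Its mean level over 34 HIF targets was also apart (0.738). The remaining one in that group is Hif1an in replicate 6 (0.693, highest).

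In the DMOG group of retina RNA (labelled liver) replicate 3, the library with the highest lens marker sum, was the highest for Crybb3 (0.646), Nupr1 (0.895), Tmem40 (0.757), Cryab (0.885), P4ha2 (0.911), Anxa1 (0.939), Fgfr3 (0.875) and Rasl11b (0.697). Others there are Arsg in replicate 1 (0.771, highest), Hif1an in replicate 5 (0.685, lowest) and Hif1a in replicate 4 (0.64, lowest). In the PBS group of liver RNA they are Ero1l in replicate 3 (0.7, lowest), Bex2 in replicate 3 (0.64, highest), Pfkl in replicate 1 (0.661, highest) and Bcar3 in replicate 6 (0.711, highest), and in that of retina RNA Zfp385b in replicate 1 (0.693, lowest), Pcdh1 in replicate 4 (0.723, highest) and Arnt in replicate 1 (0.677, lowest).

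The test of the difference itself (liver RNA minus retina RNA response, log2, limma) marked these genes. The higher responses in liver RNA differed by 7.30 for Crybb3, 5.15 for Nupr1, 3.38 for Cryab, 2.86 for P4ha2, 2.82 for Ankrd37, 2.68 for S100a4, 2.67 for A2m, 2.47 for Ero1l, 2.43 for Efna1 and 2.35 for Anxa1. Tmem40, with a difference of 3.40, is given without a test, because it passed the filter in retina RNA through other libraries than DMOG. Further ones differed by 1.99 for Gpi1, 1.28 for Pfkl, 1.31 for Aldoa, 0.92 for Ddit4, 0.68 for Gapdh, 1.28 for Fgfr3, 1.503 for Tubb6, 0.91 for Egln1, 2.33 for Egln3, 0.54 for Arnt, 0.51 for Vhl and 0.80 for Vegfa. The lower ones differed by -1.98 for Bex2, -1.51 for Arsg, -1.51 for Chka, -1.45 for Hlf, -1.43 for Gldc, -1.32 for Mid1ip1, -1.27 for Fbxo21, -1.27 for Adck3, -1.25 for Pvrl1, -1.21 for Zfp385b, -1.19 for Shank2 and -1.12 for Pcdh1. In Crybb3, Nupr1, Tmem40, Cryab, S100a4, Anxa1, Fgfr3 and Tubb6 the larger response was the one in retina RNA.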

How the results depend on the processing

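The count of 1763 genes that differed was 976 (426 higher, 550 lower) with a filter at a mean of at least 5 FPKM, which leaves fewer genes to test, and 3191 (1484 higher, 1707 lower) with libraries weighted by their fit. Rescaled to an equal total it split into 483 higher and 1603 lower, and the cause was not tested. The liver RNA response (labelled retina) fell to 1655 genes, against 2526, with the stricter filter, and the retina RNA response (labelled liver) to 94, against 147, with PBS and DMOG libraries only. Under the other alternatives the count of differences ran from 1231 to 2097. Leaving out single libraries gave 1385 to 3202 differences, 617 to 1478 higher and 715 to 1724 lower, with the highest of each without Retina_DMOG replicate 5. It gave 1809 to 4489 genes for the liver RNA response, the most again without that library, 48 to 420 for the retina RNA response and 8 to 55 called in both in the same direction. The retina RNA count was 62, 276, 48, 71 and 61 without Liver_DMOG replicates 2, 3, 4, 5 and 6, and 78, 63, 420 and 74 without Liver_PBS replicates 1, 2, 4 and 6. The difference of Gpd1 (0.12) was 0.41 with a pseudocount of 0.1 and turned to -0.094 with a pseudocount of 1, -0.081 without Retina_DMOG replicate 5 and -0.0197 without Liver_PBS replicate 2, and was at most 0.24 with 1 library left out. Of the named genes' other values, 20 lost and 9 gained a call among 1032 with a library left out, and 4 lost and 5 gained one among 588 under other alternatives.

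Same-numbered libraries did not deviate together (correlations from -0.225 to 0.213), so the replicate numbers were not taken to pair samples. With the replicate number as a block within each label 2097 genes differed, and 1652 with a block across labels. Depth is unknown, so values near 0 FPKM, such as Epo in retina RNA, set no limit on expression.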

Other observations

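Histone genes were looked at after their values were seen. Of 56 tested in both tables, 12 rose and 0 fell in retina RNA (labelled liver), while 0 rose and 1 fell in liver RNA (labelled retina), and the difference was lower in 2. Of all genes tested 0.36% rose in retina RNA, 8.46% rose and 11.5% fell in liver RNA. Without Retina_DMOG replicate 5, 4 histone genes rose and 2 fell in liver RNA. The retina count was 5 to 6 without Liver_DMOG replicate 2, 4, 5 or 6 or Liver_PBS replicate 1, 2 or 3, 18 without Liver_PBS replicate 5 and 25 without Liver_DMOG replicate 1. Because close paralogs can share reads, values of single histone genes are uncertain.

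Cell division genes had 2 of 28 members with a higher response in liver RNA, Ccnb1, a mitotic cyclin, and Tpx2, a spindle factor, and 0 lower, near the 6.97% higher of all genes tested. That count was 0 at an equal total, where 483 of all genes were higher, and 6 without Retina_DMOG replicate 5, where 13.3% of all genes were. Of 15 interferon genes 0 differed with all libraries. At an unadjusted p under 0.05 4 did, against 30.7% of all genes tested. Without that replicate 5 were higher, against 13.3% of all genes tested. Of 15 macrophage and microglia genes 0 differed, with 0 at an unadjusted p under 0.05, and 4 were higher without that replicate. Of 21 tRNA synthetases 3 were higher and 1 lower (1 and 1 at an equal total), against 6.97% and 8.91% of all genes tested with the values as deposited.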
